A study of Setaria viridis with 13 samples.

Results

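The inflorescence meristem and the vegetative meristem of Setaria viridis (green millet), a C4 grass of small size, were compared gene by gene. They were 2 of the 13 tissue and stage samples sequenced, and they were chosen by their labels. The vegetative meristem was dissected 10 days after germination at stage V3, and the inflorescence meristem 15 days after germination at stage V5. Both came from wild-type accession A10 grown in hydroponics under short days, with no treatment. Each sample is 1 column in which 3 biological replicates, from plants grown at different times, were merged. There is therefore no spread between replicates, no difference could be tested, and sizes are described. Meristem type, age and stage changed together between these samples and cannot be told apart. In dissected bulk tissue, fewer cells of a type and less RNA per cell cannot be told apart either.

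The shoot apical meristem is the dome of dividing cells at the tip of the shoot. While vegetative it gives off leaves on its flanks. On the change to flowering it becomes an inflorescence meristem, which gives off branch meristems in place of leaves. In Setaria these branches end in spikelets, which carry the florets, or in sterile bristles. The panicle is the later stage of the same organ, and anthesis is the shedding of pollen.

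Levels are given as FPKM (fragment numbers divided by transcript length and by the sample total) and differences as inflorescence minus vegetative meristem in log2(FPKM + 1). The gene IDs could not be paired with names (0 of 35471 matched the reference table), so genes are given by ID and no function is assigned to them. For the same reason the identity of the meristems could not be checked with known meristem genes. Their leaf content was gauged instead with 144 genes chosen after the values were seen, at FPKM 100 or more in all 4 parts of leaf 3 and under 5 in the root. These held 1.11% of the summed FPKM in the vegetative and 1.32% in the inflorescence meristem, against 12.7% in the V3 and 13.8% in the V5 bulk shoot. Both meristems were thus lower in these leaf genes than the bulk shoots, at similar shares. The genes were not absent, since 140 of the 144 reached FPKM 5 in a meristem. Their median FPKM was 28.8 in the vegetative and 42.6 in the inflorescence meristem, against 272 in the V3 bulk shoot. Leaf genes abundant in only some parts of leaf 3 were outside this gauge. Read depth is unknown, since the values carry no counts. FPKM summed over genes came to 753771 in the vegetative and 777951 in the inflorescence meristem, with 10184 and 10784 genes at FPKM 5 or more and 9389 of them in both.

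Most genes held similar levels in the meristems. Among the 11579 genes at FPKM 5 or more in either meristem, called expressed here, the median difference was 0.13, with quartiles of -0.26 and 0.55, and 84.4% lay within 1 log2 unit. To be called, a gene had to differ by at least 2 log2 units and to reach FPKM 5 in the meristem where it was higher. By this rule 108 genes, 0.933% of the expressed ones, were higher in the inflorescence meristem. Another 149 genes, 1.29%, were lower. Differences of 3 or more were seen in 25 of the higher and 27 of the lower genes, and of 4 or more in 11 and 4.

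The called genes were of middling abundance. The higher genes had a median FPKM of 21.1 in the inflorescence and 2.40 in the vegetative meristem, and the lower genes had 2.14 and 21.8. Together the higher genes made up 0.648% of the summed FPKM of the inflorescence meristem and 0.101% of that of the vegetative meristem. The lower genes made up 0.318% and 1.96%. In the meristem where they were low, 33 of the higher and 36 of the lower genes were under FPKM 1. The very abundant genes were shared, since 88 of the 100 most abundant genes of each meristem were the same. Si027096m.g led in the vegetative meristem at FPKM 16727, with 12330 in the inflorescence meristem, and Si014608m.g led in the inflorescence meristem at 14262, with 10513 in the vegetative one.

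**Figure D1:**
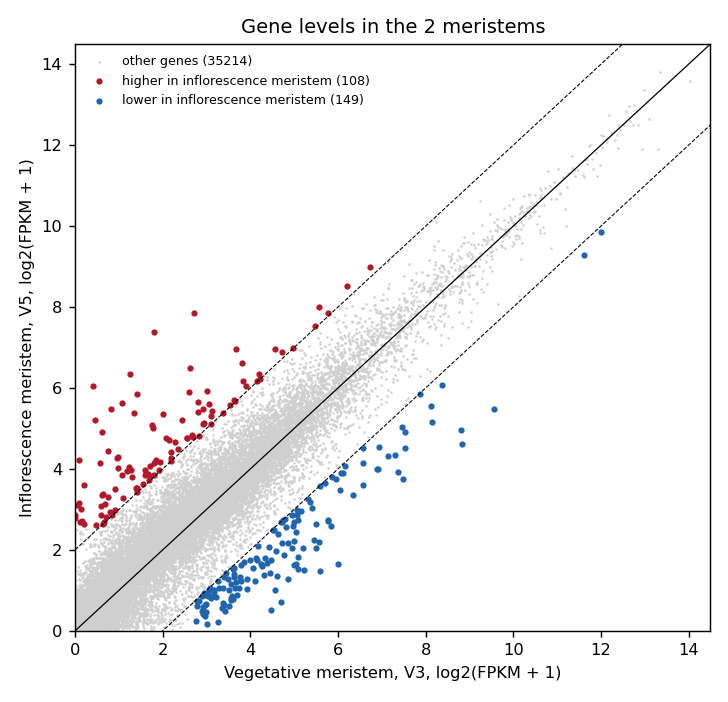
Level of each of 35471 genes in the vegetative meristem (x axis) and the inflorescence meristem (y axis), both in log2(FPKM + 1). The solid line marks equal levels and the dashed lines a difference of 2; the 108 higher genes lie above the upper dashed line and the 149 lower genes below the lower one, and most genes lie close to the line of equality.

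Among the other 11 samples, the panicles were the leading tissue of the genes higher in the inflorescence meristem. With both meristem columns left out, 68 of the 108 genes (63.0%) had their highest level in a panicle, against 20.0% of all expressed genes. The pre-anthesis panicle alone was highest for 46 of them (42.6%), against 7.84% of expressed genes. A parallel pattern appeared in presence. Of the 108 genes 41 (38.0%) reached FPKM 5 in a panicle while staying under 5 in all leaf parts, the V3 and V5 bulk shoots, the coleoptile and the root, against 3.58% of expressed genes. None of the 149 lower genes had this pattern.

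Si038090m.g showed the largest difference of all, 5.66. It was at FPKM 0.320 in the vegetative and 65.7 in the inflorescence meristem. The R bulk shoot had 321, and before anthesis the panicle reached 1977. It was at 3.63 in the post-anthesis panicle. Its levels in the bulk shoots were 0.0943 at V3 and 0.149 at V5, and the leaf parts, the root and the coleoptile ran from a listed 0 to 4.82. This gene was thus abundant in the inflorescence meristem, the R bulk shoot and the young panicle, and low in every other sample.

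Other genes were also low in the vegetative meristem and high in the panicles, but stayed abundant after anthesis. Si021639m.g was at 0.376 in the vegetative and 36.3 in the inflorescence meristem, a difference of 4.76, with 1135 before and 1009 after anthesis. Si022758m.g (4.29) was at 0.537 and 29.1, with 1260 before and 3901 after anthesis. Si037696m.g (5.14) was at 5.54 and 230, and went on to 2319 and 2956. All of these had under 8 FPKM in the V3 and V5 bulk shoots. Si010898m.g (4.15) was at 0.0570 and 17.8, and at 61.7 and 248 in the panicles, while 5 of the other samples listed it at 0 and the V5 bulk shoot was at 0.558. In contrast to these, Si037230m.g (4.66), at 0.765 and 43.6 in the meristems, was 2105 before and 155 after anthesis.

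Si007226m.g and Si031506m.g were already near their panicle level in the inflorescence meristem. Si007226m.g (5.08) was at 1.39 in the vegetative and 80.0 in the inflorescence meristem, its highest level, with 78.3 and 67.6 in the panicles. Si031506m.g (4.43) was at 1.66 and 56.3, with 87.6 and 53.2 in the panicles. Si023214m.g (4.56), at 1.08 and 48.2, was higher in the panicles, at 228 and 227. Each of these was at or under 3.23 in the V3 and V5 bulk shoots. Of the 10 genes with the largest positive differences, 9 had their highest level of all 13 samples in a panicle, and Si007226m.g had it in the inflorescence meristem itself.

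Si030858m.g (5.59) departed from this pattern. It was abundant in green tissue, at 1200 in the V3 bulk shoot, 1143 in the V5 bulk shoot and between 1009 and 2646 in the leaf parts, and at 3420 and 2538 in the panicles. The vegetative meristem had 2.46 and the root 0.790, whereas the inflorescence meristem had 166. Si030917m.g (3.33), named after its values were seen, was much the same, at 0.959 and 18.7 in the meristems, 571 to 1251 in the leaf parts and 0.729 in the root. They were the 2 genes called higher among the 144 leaf-abundant genes, none of which was called lower. Of expressed genes 0.933% were called higher and 1.29% lower, so counts this small say little about the group. The median difference of those 144 was 0.42, against 0.13 for expressed genes. Above 0 were 105 of them and below 0 were 39, against 6802 and 4705 of the 11579 expressed genes. The leaf-abundant genes as a group were thus slightly higher in the inflorescence meristem. The part of leaf tissue in these differences was not tested.

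**Figure D2:**
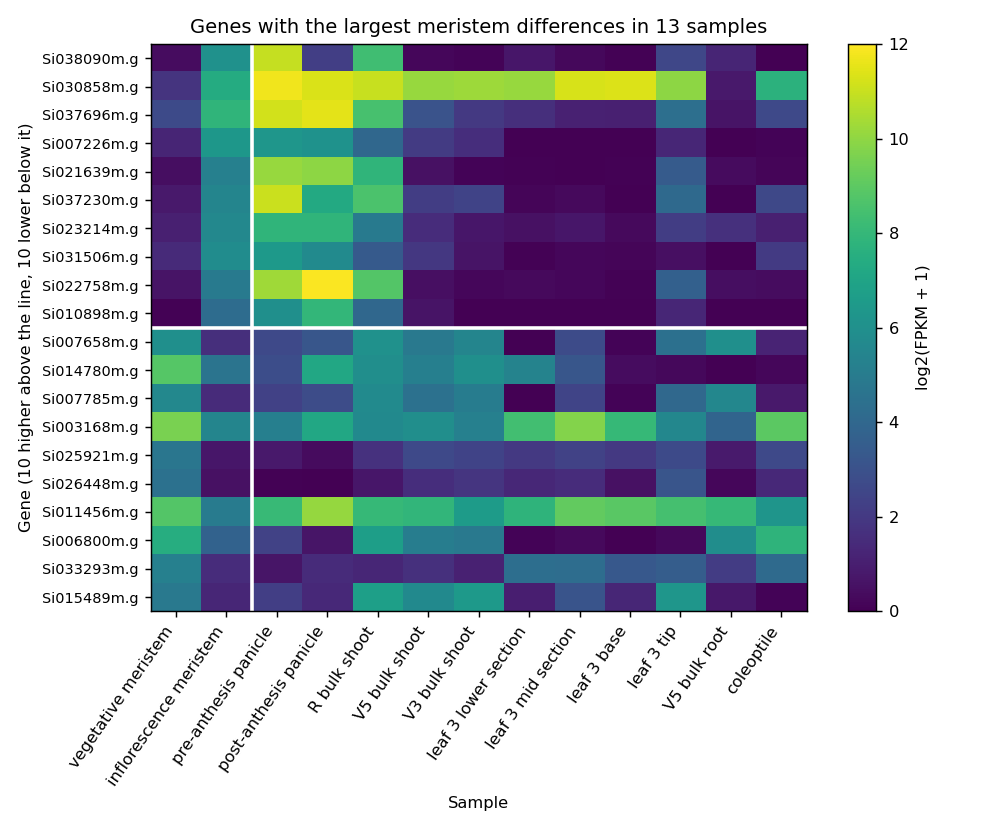
Level in log2(FPKM + 1), by colour, of the 10 genes with the largest positive (above the white line) and the 10 with the largest negative (below it) meristem difference, in 13 samples with the meristems at the left. Most of the upper genes are bright in the panicles and the R bulk shoot and dark in shoots and leaves, with Si030858m.g bright throughout green tissue; the lower genes share no single tissue.

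Of the 108 higher genes, 44 were higher in the inflorescence meristem than in any of the other samples (40.7%, against 23.1% of expressed genes, a share that the choice of genes raises). The most abundant called gene of this direction, Si032292m.g, was one of them, at FPKM 504 in the inflorescence and 106 in the vegetative meristem (a difference of 2.24), with the root next at 275. Si039246m.g (2.31) was at 364 and 72.5, with the coleoptile next at 159. The next among the 5 most abundant higher genes were higher still or about equal in the young panicle. Si003667m.g (2.44) was at 255 and 46.2 in the meristems and 1143 in the pre-anthesis panicle, and Si028892m.g (2.07) was at 230 and 53.9, with 236 there.

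The root was the highest of the remaining samples for 19 of the higher genes (17.6%, against 22.6% of expressed genes), and the coleoptile for 9. The 19 root genes had a median level in log2(FPKM + 1) of 4.67 in both the root and the inflorescence meristem, and of 2.28 in the vegetative meristem. A leaf part was highest for 5 genes (4.63%, against 21.2% of expressed genes). These included Si014453m.g (3.30), named after its values were seen, at 11.7 and 124 in the meristems and 279 in the leaf base. Genes with their peak in leaf blades were therefore few among the higher genes.

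**Figure D3:**
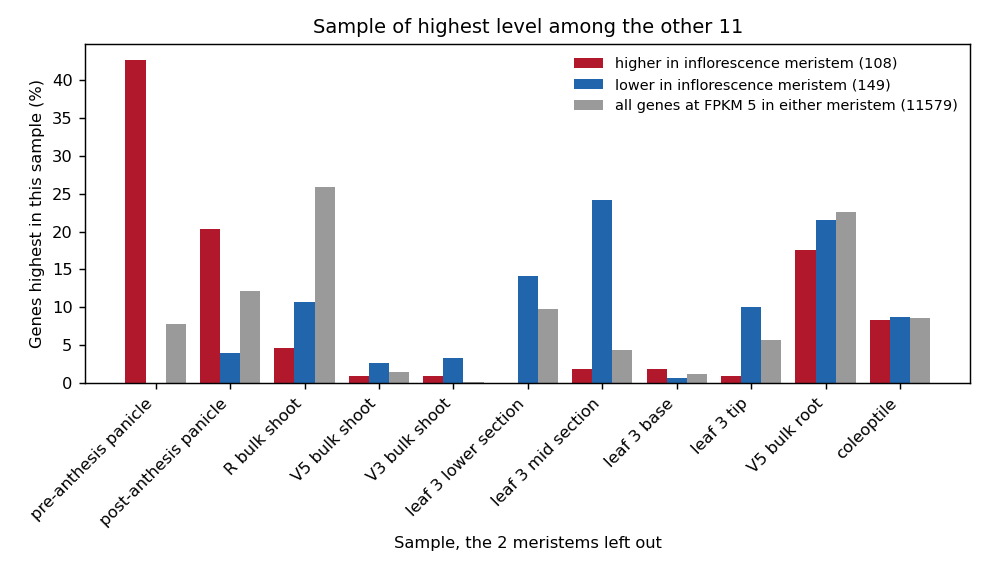
Percentage of genes (y axis) with their highest level in each sample (x axis) when the 2 meristems are left out, for the 108 higher genes, the 149 lower genes and the 11579 expressed genes. The pre-anthesis panicle takes 42.6% of the higher genes and 0% of the lower ones, and the leaf 3 mid section takes 24.2% of the lower genes against 4.39% of expressed genes.

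Genes lower in the inflorescence meristem came from several tissues, of which leaf 3 was the leading one. Leaving the meristems out, 73 of the 149 (49.0%) were highest in a part of leaf 3, against 21.2% of expressed genes. The mid section was highest for 36 (24.2%, against 4.39%), the lower section for 21 (14.1%, against 9.81%) and the tip for 15 (10.1%, against 5.72%). The root was highest for 32 (21.5%), close to its 22.6% share of expressed genes. Panicles were highest for 6 (4.03%, against 20.0%), and the pre-anthesis panicle for none. Of the 149 genes 58 (38.9%) reached FPKM 5 in a leaf part while under 5 in both panicles, against 6.65% of expressed genes and none of the 108 higher genes. In the root 43 (28.9%, against 6.34%) reached it while under 5 in both panicles, and 29 genes met both patterns.

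Si007658m.g had the largest negative difference, -4.35, at FPKM 62.6 in the vegetative and 2.12 in the inflorescence meristem. It was at 43.6, 28.2 and 67.1 in the V3, V5 and R bulk shoots and at 62.6 in the root, with 5.32 and 8.13 in the panicles and a listed 0 in the lower leaf section. Si007785m.g (-4.12) ran beside it, at 47.2 and 1.77 in the meristems. In the 10 samples where both were at FPKM 1 or more, Si007785m.g was 0.73 to 0.84 times the level of Si007658m.g, so these 2 genes are not clearly separate observations. Whether they share reads was not tested.

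The vegetative meristem was the highest of all 13 samples for 41 of the 149 lower genes (27.5%, against 13.4% of expressed genes, likewise raised by the choice). Si014780m.g (-4.22) was at 454 there and 23.4 in the inflorescence meristem, with 147 in the post-anthesis panicle next, 61.2 and 35.3 in the V3 and V5 bulk shoots and under 0.4 in the leaf base, the leaf tip, the root and the coleoptile. Si025921m.g (-3.99) was at 25.2 and 0.647, Si026448m.g (-3.94) at 21.0 and 0.434 and Si033293m.g (-3.71) at 36.3 and 1.85. These last 3 genes were under 20 in every other sample and under 2 in both panicles.

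Others were shared with leaf 3. Si003168m.g (-4.10) was at 759 in the vegetative and 43.3 in the inflorescence meristem, with 330 in the lower and 884 in the mid section of leaf 3, 260 in the base and 45.9 in the tip, and 500 in the coleoptile. Si023973m.g (-2.16), the most abundant called gene, was at 4123 and 922 in the meristems, 7081 and 8658 in the lower and mid sections and 1398 in the tip. Both were thus higher in the lower and mid sections than at the tip. Si006800m.g (-3.73) was not shared with leaf 3, at under 0.3 in all leaf parts. It was at 179 and 12.5 in the meristems, with 223 in the coleoptile and 106 in the R bulk shoot. Si015489m.g (-3.58) was at 28.2 and 1.45, with 51.0 to 109 in the bulk shoots and 78.9 in the leaf tip.

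A few lower genes were high nearly everywhere except the inflorescence meristem. Si011456m.g (-3.83) was at 445 in the vegetative and 30.3 in the inflorescence meristem, while the other samples ran from 76.2 in the coleoptile to 1081 in the post-anthesis panicle. Si010282m.g (-2.34) was at 3147 and 621, with 1120 in the root and up to 6840 in the V5 bulk shoot. For both genes the inflorescence meristem was the lowest of the 13 samples.

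**Figure D4:**
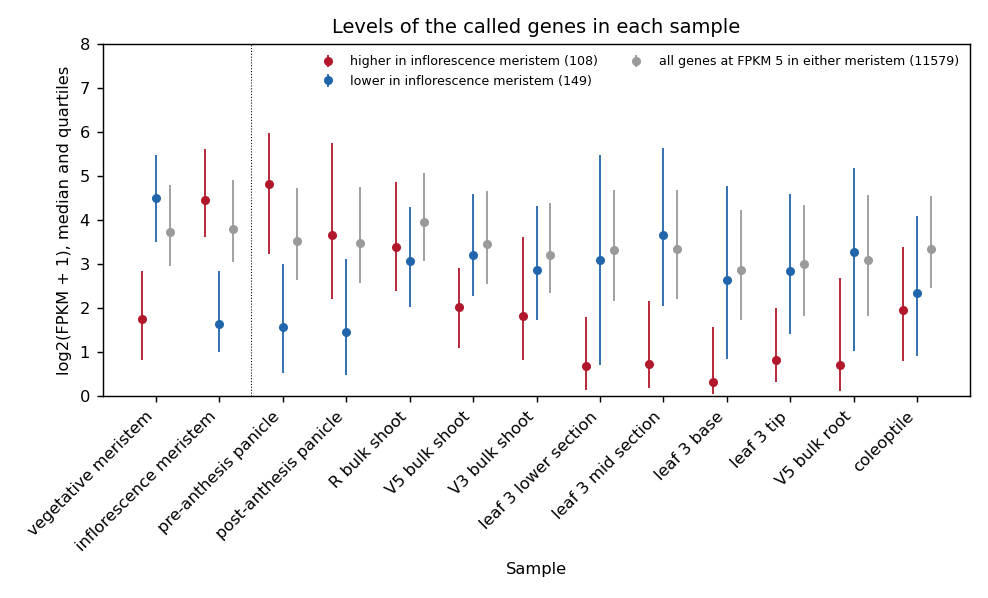
Median (point) and quartiles (bars) of log2(FPKM + 1) in each of 13 samples (x axis) for the 108 higher genes, the 149 lower genes and the 11579 expressed genes; the first 2 samples chose the genes. Outside the meristems the higher genes have their highest median in the pre-anthesis panicle (4.81) and the lower genes in the leaf 3 mid section (3.67).

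Across the samples that did not choose them, the called sets sat on opposite sides of the expressed genes in both panicles. The higher genes had median levels in log2(FPKM + 1) of 1.83 in the V3, 2.04 in the V5 and 3.38 in the R bulk shoot, against 3.20, 3.45 and 3.95 for expressed genes. In the pre-anthesis panicle they were at 4.81 against 3.53, and in the post-anthesis panicle at 3.67 against 3.48. Their medians in the leaf parts, 0.34 to 0.82, and in the root, 0.71, were far under the 2.86 to 3.34 and 3.10 of expressed genes. The lower genes were at 1.58 and 1.46 in the panicles. In the leaf parts they ran from 2.65 to 3.67, close to expressed genes, and in the root they were at 3.28. In the coleoptile the higher genes were at 1.97 and the lower genes at 2.34, against 3.34 for expressed genes. The lower genes were at 3.08 in the R bulk shoot. Thus the higher genes were low in leaf, root and coleoptile. The lower genes were furthest under expressed genes in the panicles, and less far in the coleoptile and the R bulk shoot.

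The same relation was read in the other direction from lists that used no meristem column. A list held genes that differed by at least 2 log2 units between 2 other samples, with FPKM 5 in the higher one. Of 522 genes higher in the pre-anthesis panicle than in the V5 bulk shoot, 337 were expressed in a meristem. Their median meristem difference was 0.89 (0.78 over all 522), against 0.13 for expressed genes, and 286 of the 337 were above 0. The size rule called 50 of them higher (14.8%, against 0.933%) and 3 lower (0.890%, against 1.29%). Of the 502 genes with the opposite difference, 374 were expressed, with a median of -0.30. The median was -0.18 over all 502 and -0.83 when drawn at a difference of 3. Above 0 were 142 of the 374 and below 0 were 230. Of these 374, 1 was called higher (0.267%) and 45 lower (12%). Relative to the V5 bulk shoot, genes above in the young panicle thus leaned towards the inflorescence meristem and genes below in it towards the vegetative one.

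Genes higher in the R than in the V5 bulk shoot had the highest median of the 12 lists, as deposited and under the 4 alternatives run. Of 114 such genes 58 were expressed in a meristem, with a median difference of 1.92 (1.02 over all 114, and 3.06 when drawn at a difference of 3), and 27 of them were called higher (46.6%) and 2 lower. This list and the lists of pre-anthesis panicle against V5 bulk shoot share the V5 bulk shoot column, so they are not independent of each other. Lists drawn between the panicles share the pre-anthesis panicle column with the latter, so those are not independent either. Within the panicle, 153 expressed genes that were lower after than before anthesis had a median of 0.69, with 20 called higher (13.1%) and 4 lower (2.61%). Of the 25 expressed genes that were higher after anthesis, 0 were called higher and 5 lower (20%), and their median was -0.84. That value rests on few genes. It was 0.00 over all 211 genes of the list, -0.44 after median-ratio scaling and -0.39 with transcripts summed. Genes that were higher before anthesis thus leaned towards the inflorescence meristem.

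Of the 4 leaf and root lists, 3 had medians that moved with the list rule. The 713 expressed genes higher in the lower section than in the tip of leaf 3 had a median of 0.10, close to the 0.13 of expressed genes, though 29 were called lower (4.07%) and 7 higher (0.982%). The 133 expressed genes higher in the tip had a median of -0.18, with 17 lower (12.8%) and 6 higher (4.51%), and this median was -0.84 when the list was drawn at a difference of 3. Genes higher in the root than in the V5 bulk shoot (811 expressed) had a median of 0.29, with 9 higher (1.11%) and 27 lower (3.33%). Those lower in the root (1640) had a median of 0.12, with 19 higher (1.16%) and 34 lower (2.07%). The shares called higher were close to the 0.933% of expressed genes. Drawn at a difference of 3, the medians of these root lists changed order, to 0.04 and 0.30, and over all 2023 genes the first had a median of 0.01. By their median, genes higher in the coleoptile leaned towards the vegetative meristem. The 145 expressed genes higher in the coleoptile than in the V3 bulk shoot had a median of -0.50, with 1 called higher (0.69%) and 13 lower (8.97%). The 271 lower in the coleoptile had a median of 0.06, with 6 higher (2.21%) and 24 lower (8.86%). Drawn at a difference of 3, these medians were -1.06 and -0.32. The shares called lower were thus alike in both coleoptile lists, against 1.29% of expressed genes. Of the 9 expressed genes lower in the R than in the V5 bulk shoot, with a median of -0.35, 0 were called higher and 2 lower.

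**Figure D5:**
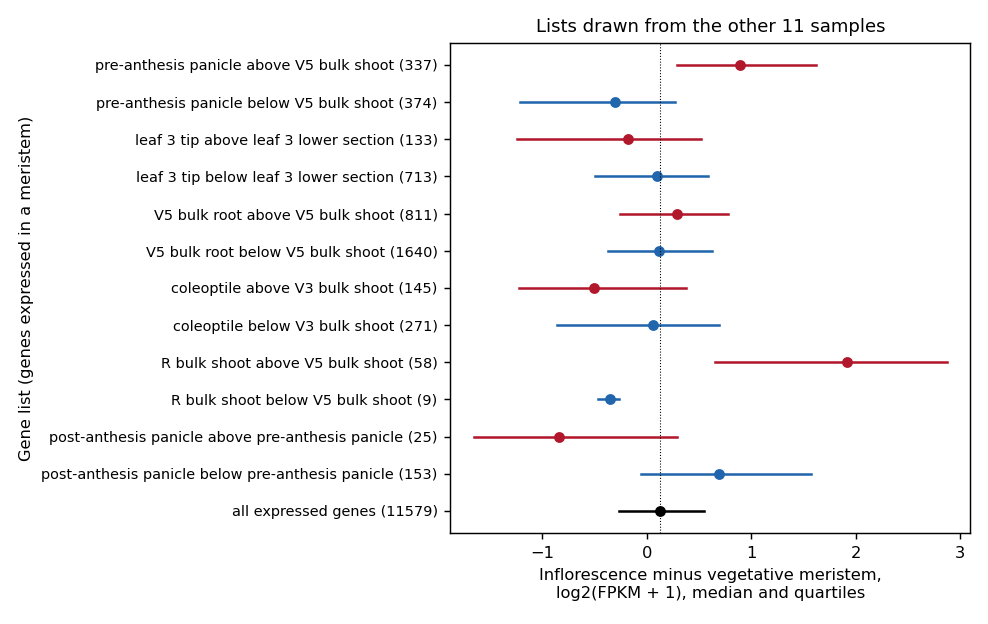
Median (point) and quartiles (bar) of the meristem difference in log2(FPKM + 1) (x axis) for 12 gene lists drawn from the other samples and for all expressed genes (black; its median of 0.13 is the dotted line). The list of genes higher in the R than in the V5 bulk shoot lies furthest to the right (1.92) and the lists of genes higher in the post-anthesis than in the pre-anthesis panicle (-0.84) or higher in the coleoptile than in the V3 bulk shoot (-0.50) lie to the left, in an order that turns with median-ratio scaling (-0.44 and -0.71) and with transcripts summed (-0.39 and -0.54).

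The bulk shoots were sampled at the same 2 ages as the meristems. Between V3 and V5, 21 genes were higher in the older shoot (0.218% of the 9620 genes at FPKM 5 in either shoot) and 9 were lower (0.0936%). Of these, 16 of the higher and 6 of the lower genes were expressed in a meristem. Among them 11 were called between the meristems too, and 10 of the 11 had opposite signs. Of all expressed genes 0.933% were called higher and 1.29% lower between the meristems. The 7 genes that were higher at V5 in the shoot and lower in the inflorescence meristem included Si023964m.g, at 56.7 in the vegetative and 4.98 in the inflorescence meristem, and at 1.45 in the V3 and 13.1 in the V5 shoot. The reverse held for 3 genes, among them Si007524m.g, at 0.682 and 20.9 in the meristems and 24.5 and 5.36 in the shoots. Si013966m.g was lower at V5 in both, at 9.48 and 0.558 in the meristems and 28.7 and 5.45 in the shoots. Of these, Si023964m.g, Si007524m.g and Si013966m.g were named after their values were seen. For the called genes as sets, the shoot difference was small, with a median of 0.09 for the higher and 0.36 for the lower genes, against 0.24 for expressed genes.

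Few called genes belonged to the meristems alone. Under FPKM 5 in every other sample were 7 of the higher genes (6.48%) and 10 of the lower genes (6.71%), close to the 5.79% of expressed genes. Si037138m.g (3.59), named after its values were seen, was at 0.474 and 16.8 in the meristems and at 4.74 in the pre-anthesis panicle, the next highest. At the other end, 5 higher genes (4.63%) and 20 lower genes (13.4%) reached FPKM 5 in all of the other 11 samples, against 34.2% of expressed genes. The called genes were thus mostly expressed in part of the plant, not throughout it, a pattern that choosing genes by a difference favours.

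At the edge of the size rule the values just inside and just outside were alike. Si010344m.g, Si022833m.g and Si024887m.g had differences of 2.00, and the next genes, Si018825m.g and Si038343m.g, of 1.99 and Si001633m.g of 1.98. On the lower side Si030374m.g was at -2.00 and Si003619m.g and Si006840m.g at -2.01, next to Si019217m.g at -1.99 and Si014201m.g and Si032042m.g at -1.98.

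Listed transcripts of the same gene had similar differences between the meristems. Whether such transcripts share reads was not tested, so they are not clearly separate observations. Of the 2485 genes with 2 or more transcripts at FPKM 5 in a meristem, 48 had transcripts of opposite sign. In 0 of them did these lie at least 1 log2 unit apart. The median gap between the highest and lowest transcript difference was 0.01, the rounding step of the deposited values, and its 95th percentile 0.21. A gap of at least 1 was seen in Si006469m.g alone, named after its values were seen, in which 1 transcript went from 17.9 in the vegetative to 1.23 in the inflorescence meristem (-3.08) and the other from 9.41 to 3.79 (-1.12).

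The deposited start site table, which gives an offset in nt per gene, covered more of the called genes than of expressed genes. An offset was listed for 62 of the 108 higher genes (57.4%) and 77 of the 149 lower genes (51.7%), against 34.3% of expressed genes. The median offset was -10 nt for the higher and -9 nt for the lower genes, against -5 nt. Positive offsets were seen in 22.6% and 23.4% of the listed genes, against 41.3%. The higher and lower genes were thus alike in this measure. The sources used here do not say how offsets were derived or what their sign means, and the reason for the wider coverage was not tested.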

How the data were processed

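RNA-seq values of 13 samples of Setaria viridis were used as deposited. Per the labels' protocols, polyadenylated RNA was made into cDNA with the SMARTer kit and read as paired-end 100 nt reads on a HiSeq2000. STAR and DESeq2 are listed in the submitters' processing notes with no role or version, and the sources used here do not state the build or how replicates were merged. Expression was deposited by the authors as log2 values, 1 row per transcript, rounded to 2 decimals; base 2 and an added 1 were inferred from the values. The other table deposited by the authors holds whole-number offsets in nt.

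Values were turned back to FPKM, and each of 35471 genes was represented by its transcript of highest mean FPKM (of 40599 transcripts). Each sample was its own group. Computations ran in Python 3.11.15 (pandas 2.3.3; numpy 2.4.6), with figures by matplotlib 3.10.9. The code for the size rule was run on simulated data with planted changes. That run checked the code only, since its noise was set by hand and the replicate spread here is unknown. The size rule, lists and alternatives were set with earlier results of these data known. A pseudocount of 1 understates differences of low genes, and a value of 0 can be a failed estimate. Named genes were the 10 largest differences and 5 most abundant called genes per direction, the 3 nearest the threshold on each side, the 5 most abundant in both meristems and up to 3 with transcripts apart; of the 5 most abundant in both, the leading gene of each meristem is printed. Gene lists by function and tissue markers could not be used, since no ID matched a name. Depth is unknown, so no intervals are given.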

Additional observations from a re-analysis of the deposited data

Results flagged for a closer look

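Between stages V3 and V5, 10 genes passed the size rule in the meristems in one direction and in the bulk shoots in the other. They were among the 16 genes higher and the 6 lower in the V5 shoot that were expressed in a meristem. The difference between the meristem and shoot effects was not tested, since each sample is 1 merged column. In the meristems Si007524m.g differed by 3.70, Si004648m.g by 2.74 and Si002820m.g by 2.38, and in the shoots by -2.00, -3.79 and -2.47. The other 7 were lower in the inflorescence meristem, with Si023964m.g at -3.27, Si003937m.g at -2.67, Si026583m.g at -2.38, Si004788m.g at -2.16, Si031718m.g at -2.07, Si026926m.g at -2.04 and Si023261m.g at -2.03. Their shoot differences ran from 2.11 for Si031718m.g to 3.41 for Si023261m.g. After median-ratio rescaling, an alternative added after the data were seen, 7 genes met both rules in opposite directions.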

How the results depend on the processing

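The counts of called genes rested on the size rule and much less on scaling. Against 108 higher and 149 lower genes as reported, a pseudocount of 0.1 gave 203 and 210, a pseudocount of 5 gave 31 and 45, an FPKM minimum of 20 gave 56 and 79, a difference of at least 1 gave 1139 and 671, and one of at least 3 gave 25 and 27. Median-ratio scaling of 13 samples gave 76 and 135, scaling of the meristems alone 85 and 165, and equal summed FPKM 89 and 148; with no FPKM minimum there were 120 and 160, with transcripts summed 115 and 160, and with the transcript highest in either meristem 108 and 150. Median-ratio scaling moved the inflorescence meristem by -0.06 against the other. The median over expressed genes stayed within 0.1 under its 5 alternatives.

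List medians kept their sign under the alternatives run, except that of genes below in the coleoptile (0.06 as reported). With lists drawn at a difference of 3, the medians were 1.17 and -0.83 for genes above and below in the pre-anthesis panicle against the V5 bulk shoot, -0.84 for leaf tip genes, 0.04 and 0.30 for genes above and below in the root, -1.06 and -0.32 for the coleoptile, 3.06 for the R bulk shoot, and -1.28 and 0.90 for the post-anthesis panicle. The list of genes lower in the R bulk shoot was then empty. A pseudocount of 0.1 gave 0.99 for genes above in the pre-anthesis panicle, 1.33 for those above in the R bulk shoot and -0.55 for those above in the post-anthesis panicle. Summed transcripts gave 1.34 and -0.39 for the last 2 lists. Median-ratio scaling gave -0.71 for genes above in the coleoptile, -0.16 for genes below in the R bulk shoot, and -0.44 and 0.55 for the post-anthesis panicle. The cause of these shifts was not tested. Of 43 named genes, 7 lost and 6 gained the call under some alternative, and none with a call changed sign.

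No paired analysis was possible because each sample is 1 column of merged replicates. Without replicates or counts, the error of each difference is unknown.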

Other observations

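Several abundant panicle genes were listed at a low level in the tip of leaf 3 and lower in its other parts. Of the 10 genes with the largest positive meristem difference, 9 had more in the tip than in each of the base, mid section and lower section, against 27.9% of expressed genes, and Si030858m.g did not. This was not general to panicle genes, since it held for 36 of the 68 higher genes (52.9%) and 31.3% of the 2317 expressed genes that were highest in a panicle. Si037696m.g was at FPKM 19.8 in the tip and at most 2.03 in the other parts, Si037230m.g at 16.1 and at most 0.248, and Si022758m.g at 11.9 and at most 0.231. By a rule chosen after the values were seen, 12 genes were drawn. They were at FPKM 100 or more in the pre-anthesis panicle and under 1 in the other 3 leaf parts and the V3 bulk shoot. Of the 12 genes, 8 were called higher in the inflorescence meristem, against 0.933% of expressed genes. That rule picks panicle genes that are low in the shoot, so this count is no separate result. The rule also favours the tip, so the order of the 12 genes among leaf parts is no result. Their tip level had a median of 0.961% of their pre-anthesis panicle level, with quartiles of 0.856% and 1.29%. In the R bulk shoot the same genes had a median of 17.1% of that level, with quartiles of 10.8% and 20.6%. For the 2317 expressed genes highest in a panicle, these medians were 31.6% in the tip and 81.1% in the R bulk shoot. Choosing genes high in the panicle and low in leaf and shoot favours low shares.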
